A study of Mus musculus with 6 samples.

Results

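The genes described here are Scg2, Emb, Cav1, Aoc3, Kcne4, Ctla2a, Npr3, Pappa and Atp10a, 9 of the 19938 mouse genes with an array entry of their own. They were chosen by their antibody differences: in both of 2 lymph node (LN) stromal cell lines their log2 intensity was lower after exposure to an agonistic antibody against the lymphotoxin β receptor (LTβR). They lie outside the matrix pathways. Each had 1 entry, which named no other gene, and all 9 passed the intensity filter of the cell line comparison, which asks for 2 of the 4 cell line arrays at or above the array median. Both unstimulated arrays met this for every member, and Cav1, Ctla2a and Atp10a met it on all 4. The antibody differences are therefore given as a description with no test. The choice had no stated size limit, and the members were not simply the genes with the lowest differences. The smallest difference inside it was that of Atp10a, -1.31 log2 units averaged over the lines. That was rank 32 from the lowest among the genes that passed the filter. Genes outside the choice lay between the members, such as Lox (-2.14), Id4 (-2.13), Hes1 (-1.71) and Cnn1 (-1.49). The next genes after Atp10a in that order were Mettl7a1 (-1.31) and Crip1 (-1.26).

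RNA had been measured on 6 single-colour arrays. The lines BLS4 and BLS12, derived from LN of BALB/cA mice, had 1 array each unstimulated and 1 array each after 2 days with a goat polyclonal anti-LTβR antibody at 1 µg/ml. No array had a control antibody, so effects of goat antibody outside LTβR cannot be told apart from effects through the receptor. The other arrays held cultured fibroblasts of C57BL/6JJcl embryos (E11.5-13.5), abbreviated MEF, and stroma freshly sorted from adult C57BL/6JJcl LN as CD45-, CD31-, podoplanin+ and VCAM-1+ cells. Strain and culture differ together between LN stroma and the lines, and strain, tissue and age between MEF and the lines. LN stroma and MEF differ in tissue, age, culture and sorting. Within each comparison these cannot be told apart. Nothing in the labels says how many animals gave the MEF or LN stroma, or that a line's 2 arrays came from separate derivations, and the p-values below rest on the spread between these arrays alone, part or all of which may be technical.

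LTβR is the receptor through which lymphotoxin from lymphocytes acts on stroma. It activates classical and non-canonical NF-κB and induces chemokines and adhesion molecules that organise lymphoid tissue. The members belong to no single pathway. They include secreted proteins (the granin Scg2, the protease Pappa and the protease inhibitor Ctla2a), a hormone receptor (Npr3), proteins of the cell surface and plasma membrane (Emb, Aoc3, Kcne4 and Atp10a) and the main protein of caveolae (Cav1).

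Markers fitted the labels in part. All 8 fibroblast markers, among them Pdpn, Vcam1, Pdgfra and Col1a1, lay at or above the array median on all 6 arrays. Of 10 leukocyte markers with an entry, 1 did so in LN stroma, 3 in MEF and 2 or 3 in the lines. Those in MEF were Lyz2 (10.36), Cd68 (8.57) and Itgam (6.46). The summed intensity of the list was 1977 in MEF, 473 in LN stroma and 481 to 1089 in the lines. Of the 9 markers of smooth muscle and pericytes, 9 did so in LN stroma, 7 in MEF and 4 to 6 in the lines. Within that list Rgs5 was at 11.3 log2 intensity in LN stroma against 4.32 to 4.75 in the lines, whereas Acta2 was lower in LN stroma (11.32) than on any line array (11.59 to 12.14). Endothelial markers at or above the median numbered 8 of 10 in LN stroma, 4 in MEF and 2 to 4 in the lines. Of these 8 Tek was at 8.18 in LN stroma, and the rest lay between 5.85 and 6.53 against a median of 5.80. Kdr (7.93) and Emcn (6.96) were higher in MEF, and the other endothelial markers were lower there. Of 6 adipocyte markers 4 reached the median in LN stroma and 1 to 4 in the lines, and of 6 neural and neuroendocrine markers 0 to 3 on any array. Array medians lay between 51.5 and 56.3 in linear intensity.

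Scg2 and Kcne4 were immediate neighbours: in the RefSeq gene order of GRCm38.p6 there were 0 protein-coding genes between them. The second gene from Ctla2a in that order was its paralog Ctla2b. The bases upstream of these 4 genes are shown because the first 2 adjoin in that order, though far apart in bases, and the other 2 are copies. Each is the 250 bases before the most upstream RefSeq start, 5′ to 3′ on the gene's strand, from RefSeq, GRCm38.p6. Capitals mark the motifs described beside them. The windows are chr1:79440027-79440276 (minus strand) for Scg2, chr1:78816661-78816910 (plus strand) for Kcne4, chr13:60936626-60936875 (minus strand) for Ctla2a and chr13:60897448-60897697 (minus strand) for Ctla2b.
Scg2: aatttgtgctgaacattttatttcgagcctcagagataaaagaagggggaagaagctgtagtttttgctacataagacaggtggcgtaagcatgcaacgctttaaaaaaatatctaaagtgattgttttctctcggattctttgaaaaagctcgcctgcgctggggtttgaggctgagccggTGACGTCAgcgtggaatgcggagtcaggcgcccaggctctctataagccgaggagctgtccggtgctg
Kcne4: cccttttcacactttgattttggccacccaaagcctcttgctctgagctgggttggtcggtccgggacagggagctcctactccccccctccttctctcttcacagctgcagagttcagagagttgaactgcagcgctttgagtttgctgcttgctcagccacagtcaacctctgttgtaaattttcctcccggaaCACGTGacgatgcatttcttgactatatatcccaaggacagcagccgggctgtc
Ctla2a: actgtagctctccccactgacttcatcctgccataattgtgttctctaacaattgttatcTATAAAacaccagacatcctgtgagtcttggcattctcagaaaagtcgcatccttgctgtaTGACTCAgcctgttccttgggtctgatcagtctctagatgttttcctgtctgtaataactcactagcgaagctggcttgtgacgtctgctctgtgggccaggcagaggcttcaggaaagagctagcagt
Ctla2b: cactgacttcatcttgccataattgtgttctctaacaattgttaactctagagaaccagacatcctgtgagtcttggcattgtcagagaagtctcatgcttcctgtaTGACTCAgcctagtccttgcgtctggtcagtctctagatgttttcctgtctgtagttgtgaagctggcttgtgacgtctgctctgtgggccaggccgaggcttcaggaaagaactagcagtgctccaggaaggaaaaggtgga

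The capitals in Scg2 are a cyclic AMP response element (TGACGTCA, its own reverse complement), 68 to 61 bases before the start. That motif was in 1.6% of 27018 such windows, 1 per gene, and in 1 of the 7 members with a RefSeq window. Kcne4 held an E-box (CACGTG), 54 to 49 bases before its start, a motif found in 6.04% of windows and in 1 of the 7 members. Ctla2a held an AP-1 site (TGANTCA, either strand) 129 to 123 bases upstream and a TATA box (TATAAA, either strand) 190 to 185 bases upstream, which were in 6.85% and 13.0% of windows. The AP-1 site was also in Ctla2b, 143 to 137 bases upstream. The windows of Ctla2a and Ctla2b were identical at 208 of 228 aligned bases (91.2%).

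No motif searched was common to the members. A GC box (GGGCGG, either strand) was in Emb, Cav1 and Atp10a (3 of 7, against 33.0% of windows), and a CCAAT box (CCAAT, either strand) in Npr3 and Atp10a (34.5% of windows). The κB site, the CArG box, the interferon-stimulated response element and the sterol response element (TCACNCCAC), searched on both strands, matched 0 of the 7, and 3.74%, 1.41%, 3.05% and 1.03% of windows. In the Atp10a window a CCAAT box overlapped a GC box. The share of G and C ran from 38.8% in Npr3 to 59.6% in Cav1, around a median of 52.0% over all windows. Aoc3 and Pappa were not among the windows.

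Scg2 encodes secretogranin II, a granin of secretory granules that is cut into peptides such as secretoneurin. It lay at 10.30 log2 intensity in unstimulated BLS4 and 7.08 with antibody, at 8.84 and 5.79 in BLS12, at 5.81 in MEF and at 5.68 in LN stroma. Unstimulated lines were thus high and the other cells close to their array medians of 5.74 and 5.80. Antibody-treated BLS12 lay within 0.11 of both reference arrays, while treated BLS4 stayed 1.27 above MEF and 1.40 above LN stroma. Signal with antibody was 10.7% of the unstimulated signal in BLS4 and 12.1% in BLS12, differences of -3.22 and -3.05, and Scg2 had the lowest averaged difference of the 11988 genes that passed the filter.

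Pappa encodes pappalysin 1, a secreted metalloproteinase that cleaves IGF-binding proteins and so frees IGF. Its levels were 7.40 and 5.74 in BLS4 without and with antibody, 6.38 and 5.13 in BLS12, 9.73 in MEF and 6.99 in LN stroma. MEF was the highest array and both treated arrays the lowest, each below its array median. With antibody the level differed by -1.66 in BLS4 and -1.25 in BLS12.

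Ctla2a encodes a small inhibitor related to the propeptide of cathepsins. Its levels were 8.76 and 7.33 in BLS4, 9.55 and 8.17 in BLS12, 8.06 in MEF and 4.93 in LN stroma. LN stroma stood apart as the only array below its median. The antibody differences, -1.44 in BLS4 and -1.38 in BLS12, were the closest to each other of the 9 pairs.

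Npr3 encodes the natriuretic peptide clearance receptor, which removes the peptides from the cell surface. Its levels were 10.99 and 9.78 in BLS4, 8.0 and 5.80 in BLS12, 9.09 in MEF and 5.81 in LN stroma. Treated BLS12 thus lay at the level of LN stroma, both close to their array medians (5.82 and 5.80), and treated BLS4 remained above MEF. With antibody Npr3 differed by -1.21 in BLS4 and by -2.21 in BLS12.

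Emb encodes embigin, a membrane glycoprotein of the basigin family that accompanies monocarboxylate transporters. Its levels were 11.20 and 9.14 in BLS4, 8.42 and 5.22 in BLS12, 8.25 in MEF and 8.82 in LN stroma. Treated BLS12 differed from MEF by -3.04 and from LN stroma by -3.60, while treated BLS4 lay above both. The antibody differences were -2.06 in BLS4 and -3.20 in BLS12, the widest gap between the lines among the 9 (SD over the lines 0.80).

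Aoc3 encodes vascular adhesion protein 1, a surface amine oxidase. Its levels were 9.12 and 7.31 in BLS4, 6.49 and 5.15 in BLS12, 5.25 in MEF and 9.77 in LN stroma. LN stroma was highest, and MEF and treated BLS12 were below their medians. The antibody differences were -1.82 in BLS4 and -1.34 in BLS12.

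Kcne4, a β subunit of voltage-gated potassium channels, was at 7.10 and 5.57 in BLS4, 7.98 and 6.68 in BLS12, 5.41 in MEF and 11.06 in LN stroma. LN stroma was the highest array and MEF the lowest, with treated BLS4 also below its median. The differences with antibody were -1.53 in BLS4 and -1.29 in BLS12.

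Cav1 encodes caveolin 1, the scaffold of caveolae. It lay at 9.92 and 8.41 in BLS4, 10.35 and 8.22 in BLS12, 10.38 in MEF and 9.04 in LN stroma. All 6 arrays were well above their medians, and the treated arrays were the lowest. Antibody-treated cells differed by -1.51 in BLS4 and -2.13 in BLS12.

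Atp10a encodes a P4-ATPase, a flippase that moves phospholipids to the inner leaflet of the plasma membrane. Its levels were 7.68 and 6.49 in BLS4, 8.55 and 7.12 in BLS12, 7.77 in MEF and 7.44 in LN stroma. The span over the 6 arrays, 2.06 log2 units, was the smallest of the 9, and treated BLS4 was the lowest array. Its antibody differences were -1.19 in BLS4 and -1.43 in BLS12.

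**Figure D1:**
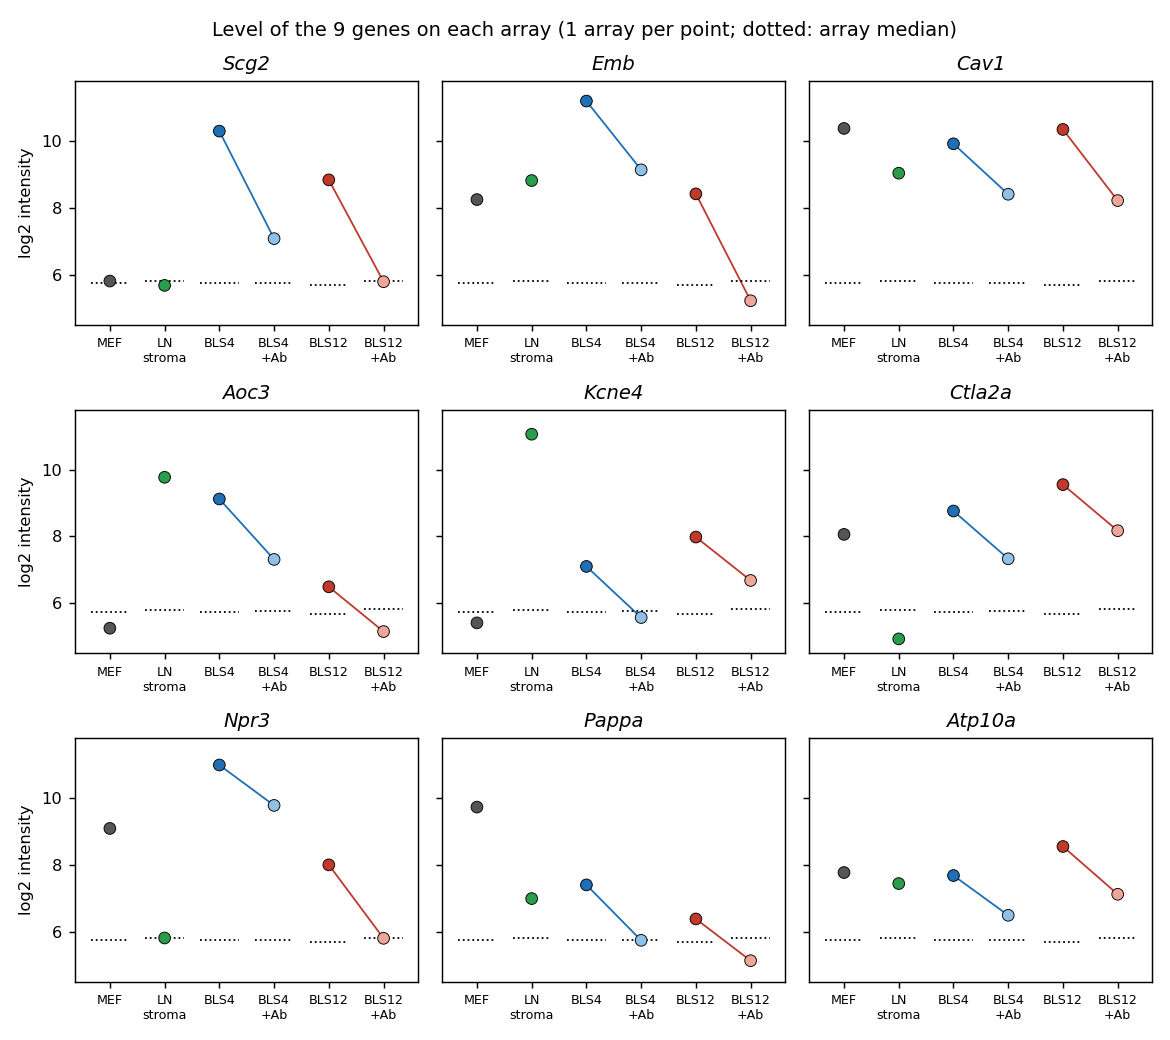
Log2 intensity of each of the 9 genes (1 panel per gene) on each of the 6 arrays, with 1 point per array, lines joining a cell line without and with antibody (+Ab), and dotted marks at each array's median. Scg2 lies at 10.30 without and 7.08 with antibody in BLS4, and Kcne4 is highest in LN stroma at 11.06. Heights are not comparable between panels, as entries differ in probes.

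Across the 9 genes the antibody difference had a median of -1.53 in BLS4 and -1.43 in BLS12. Over the 11988 genes that passed the filter the medians were 0.016 and -0.051. All 9 members were at least 2-fold lower in both lines, as were 28 genes in all (0.234%); this count follows from how the members were chosen. The difference was larger in BLS12 for Emb, Cav1, Npr3 and Atp10a and larger in BLS4 for the other 5. With antibody 2 members lay below the array median in BLS4 and 5 in BLS12, and no unstimulated level did so. The files give no detection call, so the size of a difference is approximate where the lower level is that dim. Summed marker lists also differed between these arrays. The summed intensity of the 10 leukocyte markers was 713 without and 682 with antibody in BLS4, against 481 and 1089 in BLS12. For the 7 epithelial and mesothelial markers it was 454 and 431 in BLS4, against 1843 and 944 in BLS12. For the 9 smooth muscle and pericyte markers it was 5089 and 3520 in BLS4, against 4988 and 3656 in BLS12. Such sums follow their brightest genes. In BLS12 Lyz2 was at 7.82 log2 intensity without and 9.63 with antibody, while the median of the leukocyte list was 4.58 and 4.70. Upk3b was at 10.17 and 8.61 in BLS12, and Acta2 at 12.14 and 11.59 in BLS4. Other genes of these lists went both ways. Cnn1 differed with antibody by -1.35 in BLS4 and -1.64 in BLS12, and Mcam by 0.25 and 0.16. Msln differed by -0.16 and -0.89, Krt18 by 0.14 and 0.19, and Wt1 by 0.08 and 0.34. The sums alone cannot tell a shift of a whole list from a change in its brightest genes. The part of these markers in the members' differences was not tested. In whole cultures, fewer cells of a type and less RNA per cell cannot be told apart.

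**Figure D2:**
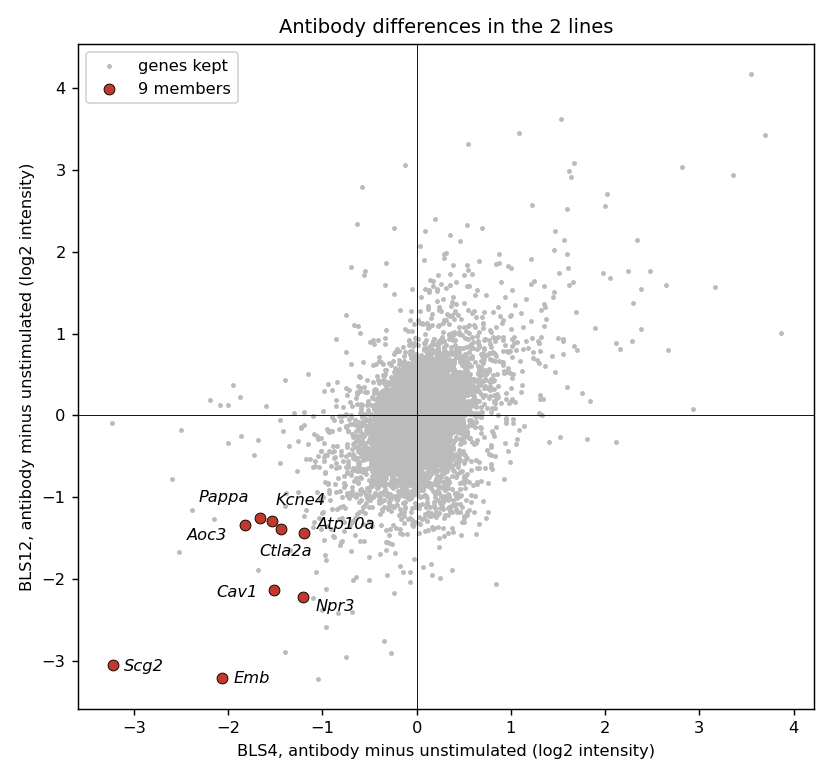
Antibody minus unstimulated difference in BLS4 (horizontal) and BLS12 (vertical), both in log2 intensity, for the 11988 genes that passed the filter (grey) and the 9 members (red). Scg2 (-3.22 and -3.05) is lowest in the average of the axes, and has rank 2 from the lowest in BLS4 and rank 3 in BLS12. Emb and Npr3 lie lower in BLS12 than in BLS4, and the position of the members follows from their choice.

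How BLS12 and BLS4 differ was not named in the choice of members, but that contrast uses the same 4 arrays. All members reached the array median on both unstimulated arrays, which the filter does not ask of other genes. The shares over all genes below are therefore not matched to the members in level or in antibody difference. In limma's additive model of line and antibody, 8 of the 9 members differed between the lines at a Benjamini-Hochberg adjusted p under 0.05, where 23.6% of all genes tested did. Npr3, Emb, Aoc3, Scg2 and Pappa were higher in BLS4 (5 of 9, where 11.4% of genes were), and Kcne4, Ctla2a and Atp10a were higher in BLS12 (3 of 9, where 12.2% were). The median size was 1.00 log2 units among the members and 0.28 over all genes. No direction was common to the members. The epithelial and mesothelial sums given above also stood apart between the lines, as did the summed adipocyte markers (406 and 393 in BLS4, 212 and 238 in BLS12). Among the tested genes of these lists the largest line differences were those of Upk3b (3.06) and Pparg (-1.91). The part of these markers in the line differences was not tested.

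Npr3 had a mean of 10.39 in BLS4 and 6.90 in BLS12, a BLS12 minus BLS4 difference of -3.49 (SE 0.250, limma adjusted p = 0.00117), which is 11.2-fold. Emb differed by -3.35 (SE 0.276, limma adjusted p = 0.00176) and Aoc3 by -2.39 (SE 0.170, limma adjusted p = 0.00113). For these 3 the treated BLS4 array was still above the unstimulated BLS12 array. Whether the arrays of the lines overlap also depends on the antibody differences used in the choice. The share over all genes was not determined, so this is a description.

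Scg2 differed by -1.38 (SE 0.142, limma adjusted p = 0.00348) and Pappa by -0.82 (limma adjusted p = 0.0211). In the other direction Kcne4 differed by 1.00 (SE 0.146, limma adjusted p = 0.00937), Ctla2a by 0.81 (limma adjusted p = 0.0138) and Atp10a by 0.75 (limma adjusted p = 0.0199). Thus the genomic neighbours Scg2 and Kcne4 differed between the lines in opposite directions. Cav1 differed by 0.12 (95% interval -0.35 to 0.59, limma adjusted p = 0.686), the only member that did not pass; its sign changed between unstimulated (0.43) and antibody-treated arrays (-0.19). The other 8 kept their sign in both conditions, and Npr3 and Emb differed more with antibody (-3.98 and -3.92) than without (-2.99 and -2.79). The model has 1 residual degree of freedom, the disagreement of the antibody differences of the lines. Its SE is therefore not wholly apart from the choice of members: the median SE was 0.163 for them and 0.144 over all genes. Without antibody in the model 0 of the 9 passed, since the antibody differences then count as spread.

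**Figure D3:**
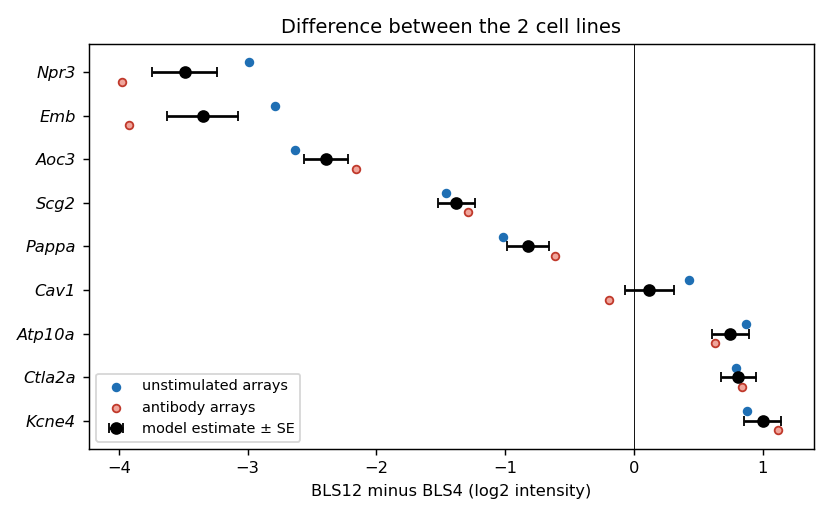
BLS12 minus BLS4 difference in log2 intensity for each member, with the model estimate and its SE in black, the unstimulated arrays in blue and the antibody-treated arrays in red. Npr3, Emb, Aoc3, Scg2 and Pappa lie left of 0 (higher in BLS4), Cav1 spans it, and Atp10a, Ctla2a and Kcne4 lie to the right.

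LN stroma and MEF had 1 array each, so these comparisons have no replicate check and no test, and a difference of at least 4-fold was counted. Against MEF, a comparison that shares no array with the choice of members, LN stroma differed in 5 members, where 7.57% of genes kept did: 2 were higher (4.64% of genes were) and 3 lower (2.93% were). Kcne4 was higher by 5.65 log2 units (50.1-fold) and Aoc3 by 4.52 (22.9-fold). Npr3 was lower by a difference of -3.29, Ctla2a of -3.13 and Pappa of -2.74. Cav1 differed by -1.34, Emb by 0.56, Atp10a by -0.33 and Scg2 by -0.12. Kcne4 and Aoc3 lay below the array median in MEF, and Ctla2a in LN stroma. They passed the filter, which asks for 1 array at or above its median, only through the array where they are high, and their sizes are approximate. With both arrays required to reach the median 5 members were kept and 2 of them, Npr3 and Pappa, were at least 4-fold apart, where 4.64% of genes were. Npr3 in LN stroma only just reached it (5.81 against a median of 5.80), so its size is approximate too. Beside the high Kcne4 and Aoc3 of LN stroma, 5 of the 9 smooth muscle and pericyte markers were higher there than in MEF: Abcc9 (12.18 against 5.35), Rgs5 (11.30 against 6.62), Kcnj8 (10.08 against 5.67), Des (11.12 against 8.21) and Myh11 (9.54 against 7.62). The other 4 were lower there than in MEF: Acta2 (11.32 against 13.30), Cnn1 (6.15 against 10.20), Cspg4 (6.17 against 8.27) and Mcam (7.62 against 10.53). The summed intensity of the list was 14123 in LN stroma, 13698 in MEF and 4988 to 5089 in the unstimulated lines. Their part in the levels of Kcne4 and Aoc3 was not tested.

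The comparisons with the unstimulated lines share those arrays with the choice of members, so their counts are a description. In 4 members LN stroma was at least 4-fold from both lines, as were 4.09% of genes kept. It was at least 4-fold higher in Kcne4 (3.96 above BLS4 and 3.08 above BLS12, where 3.52% of genes kept were higher). It was at least 4-fold lower in Scg2 (-4.62 and -3.15), Ctla2a (-3.83 and -4.62) and Npr3 (-5.19 and -2.20), where 0.569% of genes were. Aoc3 lay 0.65 above BLS4 and 3.28 above BLS12 and so missed the size in 1 line. MEF was as far from both lines in 2 members (1.44% of genes kept): it was at least 4-fold higher than both lines in Pappa (2.33 and 3.35; 1.14% of genes) and lower in Scg2 (-4.49 and -3.03; 0.308% of genes). With every array compared required to reach its median, 7 members were kept in each of these comparisons. LN stroma then differed from both lines in Kcne4 and Npr3 (1.95% of genes), and MEF in Scg2 and Pappa (0.601% of genes). Npr3 in LN stroma and Scg2 in MEF lay close to the array median, so their sizes are approximate. These comparisons share the unstimulated arrays, and each shares its MEF or LN stroma array with the comparison of LN stroma and MEF.

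With antibody the lines were not uniformly nearer to either reference. The members were chosen for lower levels with antibody in both lines. Against a fixed reference array their levels could therefore only come down. The direction of every change below thus follows from the choice, and the counts are a description. In BLS4, 6 members were above MEF without antibody and 5 with it, and in BLS12 the numbers were 6 and 2. Above LN stroma were 7 and then 4 members in BLS4, and 5 and then 2 in BLS12. For Scg2 the treated levels were closer to LN stroma than the unstimulated ones, as they were for Ctla2a and Npr3. For Kcne4 and Aoc3, already below LN stroma, the treated levels were further from it. Kcne4 differed from LN stroma by -3.96 without and -5.49 with antibody in BLS4, and by -3.08 and -4.37 in BLS12.

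**Figure D4:**
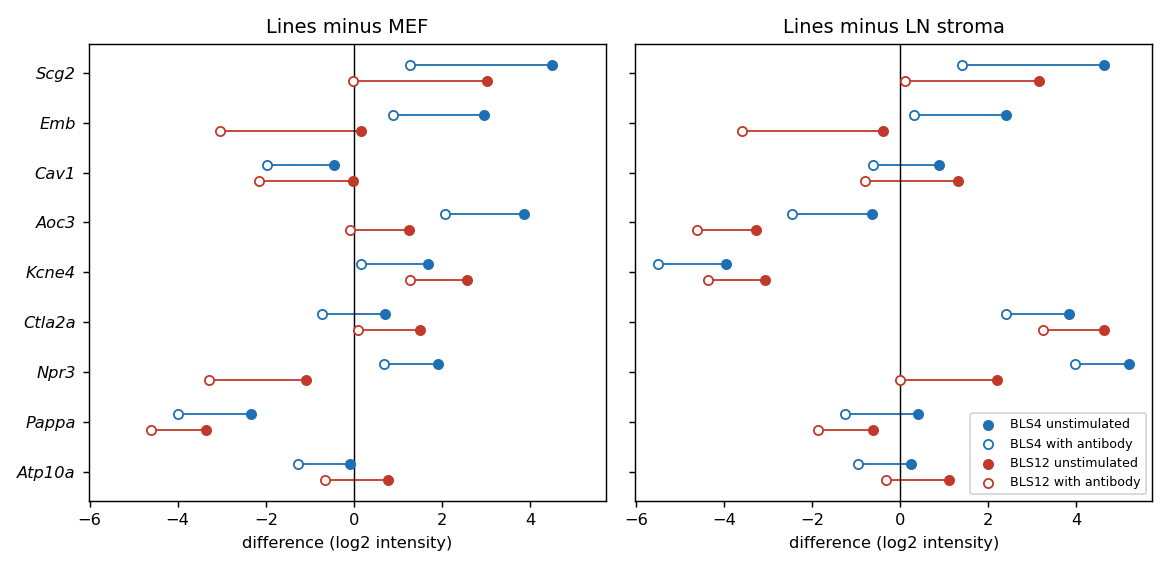
Level of each member in BLS4 (blue) and BLS12 (red), unstimulated (filled) and with antibody (open), minus its level in MEF (left) or LN stroma (right), in log2 intensity. Scg2 in treated BLS12 ends at -0.02 against MEF and 0.11 against LN stroma, whereas Kcne4 in treated BLS4 ends at -5.49 against LN stroma. Each open point lies left of its filled point, which follows from the choice of members.

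The members did not share 1 profile. Over the 6 arrays Pearson's r between pairs of members ran from -0.59 (Kcne4 and Ctla2a) to 0.85 (Cav1 and Atp10a), with a median of 0.36 over 36 pairs. All pairs share the same 6 arrays and the antibody contrast that chose them, so these values are a description. After Cav1 and Atp10a the highest were Emb and Npr3 (0.75), Cav1 and Pappa (0.74) and Emb and Aoc3 (0.71). The neighbours Scg2 and Kcne4 had an r of -0.08.

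The genes with the closest centred profiles were sought among 12350 genes, by the root-mean-square distance over the 6 arrays. Nearest to Atp10a was Cacna1g, a T-type calcium channel, at a distance of 0.26 log2 units (r 0.96), followed by Daam2 (0.28). Nearest to Cav1 were the semaphorin Sema3c (0.42) and the growth factor Fgf2 (0.47). Kcne4 was closest to Abca9 (0.50) and to Serping1, the C1 inhibitor (0.51). Ctla2a was closest to Kif26b (0.52) and Hacd4 (0.53), and Pappa to Tagln, the actin-binding transgelin (0.52), and Ckb (0.59). Aoc3 was closest to Ggt5 (0.56) and to Sfrp2, a secreted Wnt modulator (0.62). Emb was closest to F3, which encodes tissue factor (0.65), and Ptx3 (0.68), and Npr3 to Cd53 (0.69) and Serpinb9b (0.73). Scg2 had the most distant nearest genes of the 9, St3gal5 at 1.01 and Gsta4 at 1.02.

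The other genes of each member's pathway, family or complex were examined next. Of 101 such genes 96 had an entry, 60 passed the filter and 0 passed the threshold in limma in either direction, where 0.275% of all genes did (0.0751% lower). Of the 60, 19 had an unadjusted p under 0.05, where 11.6% of all genes tested did. In both lines 30 of them were lower and 9 higher, where 31.5% and 28.4% of all genes were, and their median difference was -0.17 against -0.017 over all genes. The lists were drawn up with earlier results of these data known, so these counts support nothing about the pathways. With each array centred on its median 4 of the 60 passed: Aoc1 was higher, and Lox, Ctla2b and Prkg1 were lower. Between the lines 25 of the 60 were higher in BLS4 and 6 in BLS12, against 11.4% and 12.2% of all genes.

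Of 8 other granins and prohormone-processing genes with an entry 3 passed the filter and 0 passed the test. Cpe, the carboxypeptidase that trims prohormones, differed by -0.16 (limma adjusted p = 0.721), Vgf by 0.06 and Pcsk1n by 0.01. The granin Scg3 was below the filter in the lines, at 3.82 in BLS4 and 3.70 in BLS12, and at 9.52 in LN stroma. The prohormone convertase gene Pcsk1 was at 3.93 and 4.18 in the unstimulated lines, below the array median. Cpe was higher in BLS4, with a BLS12 minus BLS4 difference of -0.76 (limma adjusted p = 0.0168).

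Among the partners of Emb, 5 of 6 with an entry were tested and 0 passed. Bsg, the related basigin, differed by -0.40 (limma adjusted p = 0.470), and the lactate transporter Slc16a1 by -0.40 (0.07 in BLS4 and -0.88 in BLS12). Slc16a1 was higher in BLS12 by 3.16 (limma adjusted p = 0.00148), the direction opposite to that of Emb. Nptn differed between the lines by -0.74 (limma adjusted p = 0.0171) and Slc16a3 by -0.88 (limma adjusted p = 0.0130).

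Of 7 tested caveolar genes (9 with an entry) 0 passed, and 5 were lower in both lines, with a median of -0.36. Cavin1, the coat protein of caveolae, differed by -0.95 (limma adjusted p = 0.181), Ehd2, an ATPase at their neck, by -0.63 (limma adjusted p = 0.232) and Cav2, which forms oligomers with caveolin 1, by -0.56 (limma adjusted p = 0.275). Cavin2 went by 0.46 in BLS4 and -1.18 in BLS12. Between the lines Ehd2 (-0.92, limma adjusted p = 0.0154) and Pacsin3 (-1.26, limma adjusted p = 0.00565) were higher in BLS4.

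The amine oxidases had the widest span of the lists. Of 8 tested 0 passed; Lox, which cross-links collagen, differed by -2.14 (limma adjusted p = 0.0941) and Aoc1, the diamine oxidase, by 2.12 (2.65 in BLS4 and 1.59 in BLS12, limma adjusted p = 0.0623). Aoc2, which adjoins Aoc3 in the genome, differed by 0.05. The mitochondrial oxidases Maoa and Maob differed by -0.80 and -0.03. Between the lines 6 of the 8 were higher in BLS4, as Aoc3 was: Loxl1 (-3.55), Maob (-2.34), Lox (-1.97), Loxl4 (-1.38), Maoa (-1.31) and Loxl3 (-1.02). Lox was known from earlier results of these data when the list was made.

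Of 12 other KCNE subunits and channels with an entry only Kcnq1 and Kcna3 passed the filter, with differences of 0.05 and -0.01. Both lay near the array median, at 5.90 and 6.20 in unstimulated BLS4. Kcnma1, a large-conductance potassium channel, was below the median in the lines and at 6.63 in LN stroma.

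Among 10 tested cathepsins, cystatins and CTLA-2 genes 0 passed. Ctla2b, the nearby copy of Ctla2a, differed by -1.14 (-0.94 in BLS4 and -1.35 in BLS12, limma adjusted p = 0.0822). The table gives the copies separate entries, but whether either entry also takes up transcripts of the other was not tested. Ctsl, the protease that Ctla2a is known to inhibit, differed by 0.16 (limma adjusted p = 0.738), and Ctsh by -0.72 (limma adjusted p = 0.130). Ctsh (-2.37), Ctsk (-2.21), Cst3 (-0.97) and Ctsl (-0.69) were higher in BLS4.

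Of the natriuretic peptide system 5 of 11 were tested and 0 passed. Prkg1, the cGMP-dependent kinase downstream of the signalling receptors, differed by -1.20 (-1.02 and -1.38, limma adjusted p = 0.0735). Npr2, the signalling receptor of C-type peptide, differed by 0.06 (limma adjusted p = 0.908), and the peptidase Mme by -0.56. Mme (-2.09), Furin (-0.91) and Npr2 (-0.70) were higher in BLS4, like Npr3, and Prkg1 in BLS12 (1.32).

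In the pappalysin and IGF list 12 of 13 were tested and 0 passed. Igf1 differed by -1.77 (-0.96 and -2.58, limma adjusted p = 0.161) and Igfbp6 by -1.18 (limma adjusted p = 0.161). Igfbp4, the main substrate of Pappa, differed by -0.64 (limma adjusted p = 0.181), and Igfbp3 by 0.84 in BLS4 and -2.06 in BLS12. The inhibitors of pappalysin Stc1 and Stc2 differed by -0.12 and 0.61. Igfbp4 was higher in BLS12 by 5.50 (limma adjusted p = 0.000249), the direction opposite to that of Pappa, as was Igf2 (0.63). Igfbp6 (-1.29), Stc1 (-1.12), Igf2r (-1.08) and Pappa2 (-0.75) were higher in BLS4.

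Of 8 tested P4-ATPases and their CDC50 subunits 0 passed, with differences between -0.38 and 0.04. Atp10d, a close relative of Atp10a, differed by -0.38 (-0.50 and -0.26, limma adjusted p = 0.415), and Tmem30a, the subunit many flippases need, by -0.33 (limma adjusted p = 0.481). Atp10d (1.29) and Atp8a1 (0.82) were higher in BLS12, as Atp10a was, and Atp8b1 (-2.97), Atp8b2 (-0.86) and Tmem30a (-0.61) in BLS4.

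**Figure D5:**
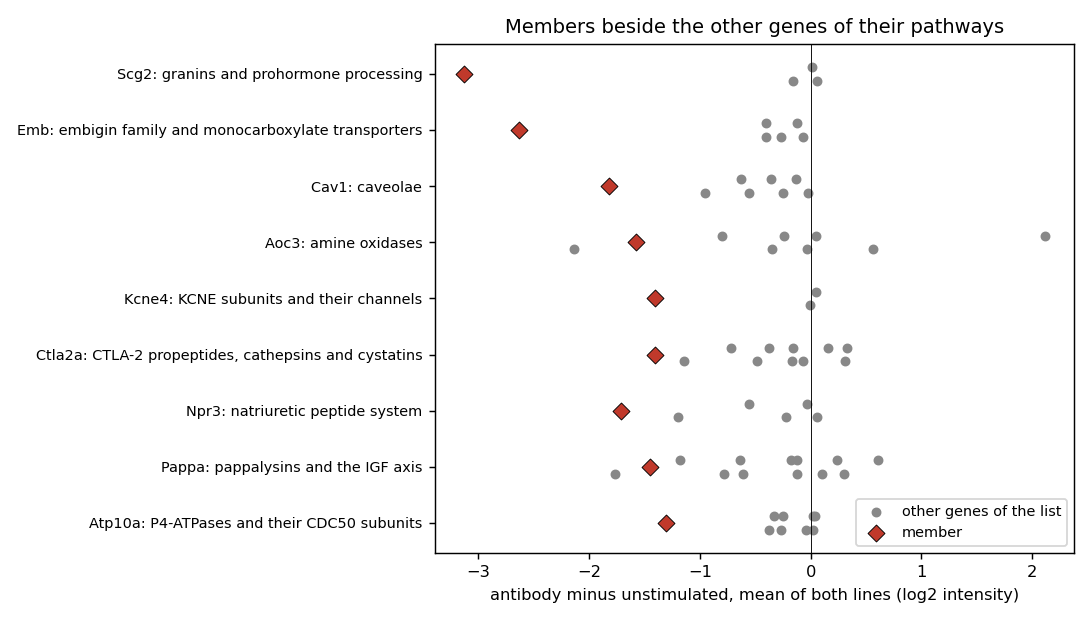
Antibody minus unstimulated difference averaged over both lines, in log2 intensity, for each member (red diamond) and for the tested other genes of its list (grey points), 1 row per list. The members were chosen for low values here. In 7 of the 9 lists the member lies lowest; Lox (-2.14) lies below Aoc3 and Igf1 (-1.77) below Pappa.

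The genes beside the members were compared next, since position was not used in the choice. Of 48 protein-coding neighbours, 3 on each side of a member, 41 had an entry, 27 passed the filter and 0 passed in limma. Of all genes tested 0.275% passed. An unadjusted p under 0.05 was found for 6 of them, where 11.6% of all genes tested had one. Their median difference was -0.17 against -0.017 over all genes. In both lines 13 were lower and 2 higher, where 31.5% and 28.4% of all genes were. At least 2-fold lower in both lines were 0, where 0.234% of all genes were. At shares this small a count of 0 among 27 genes says nothing about the neighbours. Beside the pair of Kcne4 and Scg2, Ap1s3 differed by -0.98 (-0.32 in BLS4 and -1.64 in BLS12, limma adjusted p = 0.334) and Wdfy1 by -0.30. Next to Cav1, Cav2 differed by -0.56 and the receptor gene Met by -0.14. Beside Emb, Parp8 differed by 0.98 (limma adjusted p = 0.121), beside Npr3 Tars by -0.20 and Sub1 by -0.26, and beside Pappa Tnc by -0.22 and Astn2 by 0.50. Adamts12, 2 genes from Npr3, differed by -0.89 (limma adjusted p = 0.0932). Aoc2 beside Aoc3 is given above. G6pc on its other side, and Tpbpb and Tpbpa beside Ctla2a, did not pass the filter. Utp14b beside Kcne4 and the genes that adjoin Atp10a had no entry of their own.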

How the data were processed

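RNA of 6 samples was measured on Affymetrix whole-transcript arrays. The deposited values are linear intensities per probe set. The authors used Affymetrix Expression Console 1.1 to make them, per the submitters' processing notes. Genome build, summary algorithm and normalization: not given in the sources used here. Of 35557 entries, 21789 named 1 gene, 1621 several and 12147 none; the last 2 kinds entered no comparison. The deposited intensities were log2-transformed without a floor (lowest intensity 3.55). The entry with the highest mean stood for a gene.

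Antibody and line differences came from 1 additive model over the 4 cell line arrays (limma 3.58.1, lmFit and eBayes, two-sided, R 4.3.3, Benjamini-Hochberg adjustment over 11988 genes, threshold 0.05). The filter asked for 2 of the 4 arrays not below their own median. The model was also run on data simulated from its own additive form and fitted spread, which cannot show how well it fits these arrays. Each line was its own control, the pairing being the shared cell line in the labels. MEF and LN stroma comparisons kept genes at or above the median on at least 1 array.

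Named besides the members were list genes past the threshold, otherwise the largest antibody differences; adjoining genes; and the 2 nearest profiles. Further genes (Scg3, Pcsk1, Vgf, Cavin1, Cavin2, Aoc2, Kcnma1, Igfbp3, Adamts12, Wdfy1 and list members named for their role) were chosen after their values were seen. The members and lists were chosen with earlier results of these data known. Arrays carry no counts, and their number limits the precision. Alternatives were scaling, filter, entry choice, model terms, single lines and the size threshold.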

Additional observations from a re-analysis of the deposited data

Results flagged for a closer look

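Among the pathway and neighbouring genes that passed the intensity filter, 6 had antibody differences of opposite sign in the 2 lines, each larger than the median size over all genes in that line (0.134 in BLS4 and 0.213 in BLS12). Each line had 1 array per condition, so the difference between the lines was not tested. Differences above a median size are common by definition. How many of all genes met the same condition was not determined, so the 6 are a description. The difference of Igfbp3 was 0.84 in BLS4 but -2.06 in BLS12. That of Cavin2 was 0.46 and -1.18. Loxl1 differed by 0.14 and -0.62, Mrps30 by 0.26 and -0.28, Maob by 0.17 and -0.24, and Pcsk1n by -0.20 and 0.22.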

How the results depend on the processing

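All 9 members were lower with antibody in both lines after centring each array on its median and after quantile normalization. Their median difference stayed between -1.65 and -1.58 under scaling, without a filter and with the mean of all entries. It was -1.41 where all 4 arrays had to reach the median, which left only Cav1, Ctla2a and Atp10a, and -1.43 to -1.53 with 1 line left out. The direction of the line difference of the 8 called members held under every alternative run, and all 8 passed under scaling, without a filter and with the mean of entries. Of the 3 members left by the stricter filter 2 passed, and with antibody left out of the model 0 passed.

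Antibody calls over all genes moved more: from 33 (9 lower) to 98 (44 lower) after centring, 6 (1 lower) after quantile normalization, 54 (16 lower) without a filter, 115 (41 lower) under the stricter filter, and 0 (0 lower) with no replicate block, the cell line being left out. Why scaling moves these counts was not tested. Among the pathway genes 4 then passed after centring (Aoc1 higher, Lox, Ctla2b and Prkg1 lower), 1 without a filter (Aoc1) and 2 under the stricter filter (Lox and Prkg1). Of the neighbours 1 passed after centring (Ctla2b) and 1 under the stricter filter (Adamts12). Members at least 4-fold apart fell from 4 to 2 (LN stroma against lines) and from 5 to 2 (LN stroma against MEF) under the stricter filter. For MEF against the lines they went from 2 to 4 at 2-fold, to 3 without BLS4 and to 4 without BLS12. With 1 array per line and condition no setting separates line from array.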
